A study of Mus musculus with 14 samples.

Results

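The BCL2 family genes described here are 10 genes of the survival and death machinery at the mitochondrion, chosen by gene symbol and not by a threshold on any measured value. They are the survival genes Bcl2, Bcl2l1, Mcl1, Bcl2a1b and Bcl2a1d, the effector genes Bax and Bak1, and the BH3-only genes Bcl2l11, Bid and Pmaip1. Of the 10, 9 had a probe that could be named through its accession, out of 20284 genes so named, and these 9 genes had 11 probes. No probe was matched to Bcl2a1b. Its paralogues are so alike in sequence that a probe for one of them may also bind RNA of the others, so values of Bcl2a1d belong to the Bcl2a1 group as far as the probe reads it.

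In the mitochondrial pathway of apoptosis the effector proteins BAX and BAK open the outer mitochondrial membrane, which releases cytochrome c and leads to caspase activation. BCL2, BCL-XL (from Bcl2l1), MCL1 and A1 (from the Bcl2a1 genes) hold the effectors back. The BH3-only proteins BIM (from Bcl2l11), BID and NOXA (from Pmaip1) bind these survival proteins, and BIM and the cleaved form of BID can also act on the effectors directly. Neutrophils are short-lived cells whose survival in mice is known to need Mcl1, and A1 is known from activated immune and myeloid cells.

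RNA was measured on 14 single-colour arrays, 2 for each of 7 groups of purified C57BL/6 mouse cells. The groups were bone marrow neutrophils (Neu, CD11b+ and high in Ly6G), granulocyte-monocyte progenitors (GMP) from mice labelled IRF8KO, wild-type (WT) GMP, WT common dendritic cell progenitors (CDP), WT bone marrow pre-cDC, which are the precursors that give rise to classical dendritic cells (cDC), and WT splenic CD8+ and CD4+ cDC. IRF8 is a transcription factor of myeloid and dendritic cells, and the labels name neither the allele nor any treatment or age. The labels do not say whether the arrays of a group came from separate animals, so p-values measure the spread between these arrays, which may be technical.

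A level is the log2 of a probe's processed signal minus the log2 of the array's 75th percentile, so a gene at 0 is as bright as that percentile. A difference is given with its standard error from limma, fitted on the 12 arrays of the larger array design together, and a gene was called at a two-sided adjusted p under 0.05. Levels of different genes come from different probes and are not compared. IRF8KO and WT GMP shared a slide, as did Neu and CD8+ cDC, while CDP, pre-cDC and CD4+ cDC each had a slide of their own, so in the other 4 comparisons slide and group cannot be told apart. Signal strength differed, with a 75th percentile of 148 to 162 on Neu arrays, 509 to 582 on GMP arrays, 88.8 and 89.2 on CDP arrays, 164 and 182 on pre-cDC arrays and 234 and 315 on CD8+ cDC arrays. Among the cell type markers, S100a8 was highest in Neu (level 10.68 ± 0.07, SD, n = 2), and Xcr1 was well above background in CD8+ cDC alone. Some other markers did not separate the groups, such as Cd4 (3.54 in Neu and 2.89 in CD8+ cDC) and the plasmacytoid marker Siglech (8.45 in Neu and 7.95 in pre-cDC). The Irf8 probe averaged 6.01 ± 0.03 on the arrays labelled IRF8KO and 4.65 ± 0.06 on WT GMP arrays (SD, n = 2 each). No source used here places this probe inside or outside the deleted part of the gene, so it does not check the genotype, and the label is used as it stands. In bulk samples such as these, fewer cells of a type and less RNA per cell cannot be told apart.

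The upstream sequences of the Bcl2a1 genes are shown because the results on Bcl2a1d rest on a group of near copies. They are the 250 bases before the annotated start in RefSeq, build GRCm38.p6, all on chromosome 9, with the word GAGGAAGT, which fits the ETS-type sites that the myeloid factor PU.1 is known to bind, in capitals.
Bcl2a1d, chr9:88731851-88732100, minus strand: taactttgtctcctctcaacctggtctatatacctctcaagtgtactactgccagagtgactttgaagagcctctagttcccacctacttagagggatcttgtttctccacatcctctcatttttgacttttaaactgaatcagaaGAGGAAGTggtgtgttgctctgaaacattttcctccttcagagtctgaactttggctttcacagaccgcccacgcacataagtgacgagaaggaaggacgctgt
Bcl2a1a, chr9:88956670-88956919, plus strand: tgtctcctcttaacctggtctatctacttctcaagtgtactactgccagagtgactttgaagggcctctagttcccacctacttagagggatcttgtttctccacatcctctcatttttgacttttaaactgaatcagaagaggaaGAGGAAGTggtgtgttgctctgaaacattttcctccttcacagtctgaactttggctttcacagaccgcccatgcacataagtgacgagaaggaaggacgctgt
Bcl2a1b, chr9:89199023-89199272, plus strand: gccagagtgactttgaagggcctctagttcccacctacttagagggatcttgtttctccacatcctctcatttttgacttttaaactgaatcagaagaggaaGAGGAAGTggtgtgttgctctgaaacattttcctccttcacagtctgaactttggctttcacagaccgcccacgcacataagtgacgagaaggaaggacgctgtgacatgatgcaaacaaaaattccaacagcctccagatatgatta
Bcl2a1c, chr9:114329885-114330134, plus strand: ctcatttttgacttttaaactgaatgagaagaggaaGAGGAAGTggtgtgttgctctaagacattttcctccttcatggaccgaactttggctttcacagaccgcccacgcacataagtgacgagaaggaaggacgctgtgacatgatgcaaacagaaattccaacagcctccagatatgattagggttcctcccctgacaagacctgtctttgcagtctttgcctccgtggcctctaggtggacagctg

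Aligned to each other, the windows of Bcl2a1b and Bcl2a1d were identical at 198 of 206 columns (96.1%) and those of Bcl2a1a and Bcl2a1d at 238 of 250 (95.2%). The window of Bcl2a1c shared 140 columns with that of Bcl2a1d, with 127 identical (90.7%). Read on both strands, GAGGAAGT occurred in all 4 Bcl2a1 windows and, among the 12 windows of 9 of the 10 family genes, in 3, those of Bcl2a1d, Bcl2a1b and Bak1. Of 32851 such windows in the RefSeq table, 2.44% held it. GGAANNGAA, a word written after composite ETS-IRF sites, was in 0 of the 12 windows, against 6.99% of all windows. GGANNTTCC, after NF-kB sites, was in 1, that of Bak1, against 3.59% of all, and TTGCNNAA, after C/EBP sites, was in 1, that of Bid, against 9.56% of all. No 2 of these words overlapped in a window of a family gene. These are matches of letters and show no binding. No upstream window of Pmaip1 is shown or counted.

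Among the survival genes, Bcl2a1d and Bcl2 had the widest ranges of group means over the 6 groups of the larger design, 9.64 and 6.61 on the log2 scale. CD8+ cDC were highest in Bcl2a1d and CDP highest in Bcl2, while Neu were highest in Mcl1 and Bcl2l1 and lowest in Bcl2. The plot of levels by array shows the 2 arrays of a group close together for all but Bcl2l11.

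**Figure D1:**
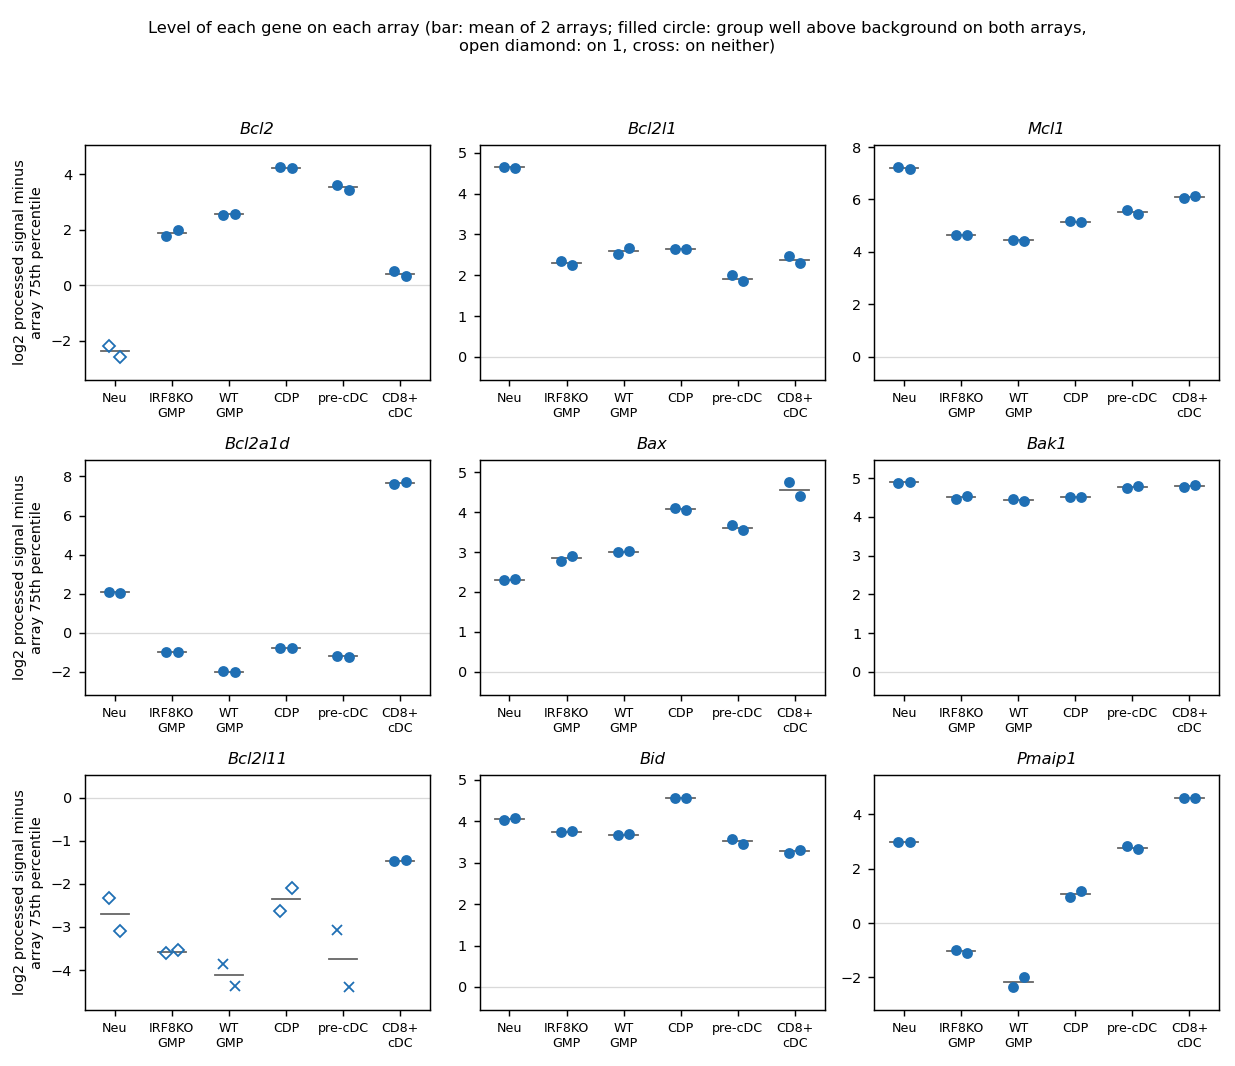
Level of each of the 9 measured BCL2 family genes on each array, as log2 processed signal minus the array's 75th percentile (vertical axis), for Neu, IRF8KO GMP, WT GMP, CDP, pre-cDC and CD8+ cDC (horizontal axis), with 1 symbol per array and a bar at the mean of the 2 arrays. Filled circles mark groups well above background on both arrays, open diamonds on 1 and crosses on neither. Bcl2 was lowest in Neu (-2.38) and highest in CDP (4.23), Bcl2a1d stood at 7.65 in CD8+ cDC, and Bak1 varied by 0.44 over all groups.

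Bcl2, the founding survival gene of the family, had levels of -2.19 and -2.58 on the Neu arrays, where it was well above background on 1 of the 2. The arrays labelled IRF8KO gave 1.77 and 1.99 and the WT GMP arrays 2.52 and 2.58, with 4.24 and 4.22 in CDP, 3.6 and 3.44 in pre-cDC and 0.50 and 0.33 in CD8+ cDC. No neighbouring groups in this order of means overlapped, and each gap exceeded the pooled SD of 0.148. Bcl2 was 3.21-fold higher in CDP than in WT GMP (log2 difference 1.68 ± 0.14, limma adjusted p = 1.15e-05). It was 8.60-fold lower in CD8+ cDC than in pre-cDC (-3.1 ± 0.14, limma adjusted p = 4.00e-07) and 30.5-fold lower in Neu than in WT GMP (-4.93 ± 0.14, limma adjusted p = 6.33e-09). Bcl2 thus fell both in the neutrophil and in the splenic dendritic cell comparison. Within the slide that Neu and CD8+ cDC shared, Neu minus CD8+ cDC was -2.80 ± 0.14 in the fit of all 12 arrays and -2.80 ± 0.17 in a fit of those 4 arrays alone. The size of the Neu differences moved with the scaling. Relative to the median of all genes, Neu minus WT GMP lay between -5.12 and -3.54 over 6 scalings. Neu minus CD8+ cDC lay between -2.98 and -1.54.

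Mcl1, which encodes a short-lived survival protein, ran in another order. Its level was 7.22 and 7.16 in Neu, 4.64 and 4.65 on the arrays labelled IRF8KO, 4.47 and 4.42 in WT GMP, 5.17 and 5.16 in CDP, 5.61 and 5.43 in pre-cDC and 6.05 and 6.15 in CD8+ cDC. The means increased at each step of WT GMP, CDP, pre-cDC and CD8+ cDC, and the arrays of neighbouring groups did not overlap. The steps were 0.72 ± 0.07 (CDP minus WT GMP), 0.35 ± 0.07 (pre-cDC minus CDP) and 0.58 ± 0.07 (CD8+ cDC minus pre-cDC), all called by limma. Neu were 6.70-fold higher than WT GMP (2.75 ± 0.07, limma adjusted p = 3.83e-09) and 2.13-fold higher than CD8+ cDC (1.09 ± 0.07, limma adjusted p = 1.34e-06). A second, dimmer Mcl1 probe gave 3.60 ± 0.07 for Neu minus WT GMP and the same direction as the first in the 5 comparisons that the first called. Under 3 other treatments of the signal the first step shrank to 0.10 to 0.12 and was not called (quantile normalization, the authors' table, and normexp background correction), and centring on array medians turned the second to -0.16, also not called.

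Bcl2l1, the gene of BCL-XL, was highest in Neu. Its brighter probe read 4.64 and 4.63 in Neu, 2.36 and 2.26 on the arrays labelled IRF8KO, 2.53 and 2.67 in WT GMP, 2.65 and 2.64 in CDP, 2.0 and 1.85 in pre-cDC and 2.46 and 2.31 in CD8+ cDC. The arrays of WT GMP and CDP overlapped, as did those of IRF8KO GMP and CD8+ cDC. Neu exceeded WT GMP 4.10-fold (2.04 ± 0.08, limma adjusted p = 4.78e-08) and CD8+ cDC 4.77-fold (2.25 ± 0.08, limma adjusted p = 3.28e-08). The dimmer Bcl2l1 probe gave 1.72 ± 0.31 and 2.23 ± 0.31 for the same pairs. For CDP minus WT GMP the brighter gave 0.04 ± 0.08, not called. The dimmer gave -1.96 ± 0.31 for that pair and was called lower in CDP (limma adjusted p = 6.27e-04), so the probes differed there. It was well above background in WT GMP but not in CDP or pre-cDC. The size of its fall is therefore not measured, and pre-cDC minus CDP was not tested with it. Over the 6 group means the probes had a Pearson r of 0.761.

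Bcl2a1d, one of the A1 genes, was far higher in CD8+ cDC than elsewhere on the larger design. It read 2.10 and 2.04 in Neu, -0.98 and -0.97 on the arrays labelled IRF8KO, -1.97 and -2.0 in WT GMP, -0.77 and -0.76 in CDP, -1.18 and -1.22 in pre-cDC and 7.61 and 7.69 in CD8+ cDC. It was well above background on every array. CD8+ cDC were 461-fold higher than pre-cDC (8.85 ± 0.05, limma adjusted p = 4.28e-11), and Neu were 16.6-fold higher than WT GMP (4.06 ± 0.05, limma adjusted p = 1.62e-10) and 47.9-fold lower than CD8+ cDC (-5.58 ± 0.05, limma adjusted p = 5.95e-11). The probe of the paralogue Bcl2a1c was not well above background in WT GMP, CDP or pre-cDC. It was at least 144-fold higher in CD8+ cDC than in pre-cDC (limma adjusted p = 2.01e-07) and at least 4.38-fold higher in Neu than in WT GMP (limma adjusted p = 7.53e-06), with r = 0.997 against the Bcl2a1d probe over the 6 group means. An at-least fold sets the brighter group against the lowest signal that counted as well above background on each array of the dimmer group. Where the probe's own signal on such an array was higher, that signal was used. Both probes may read the same RNA, so the second is no separate gene's evidence.

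**Figure D2:**
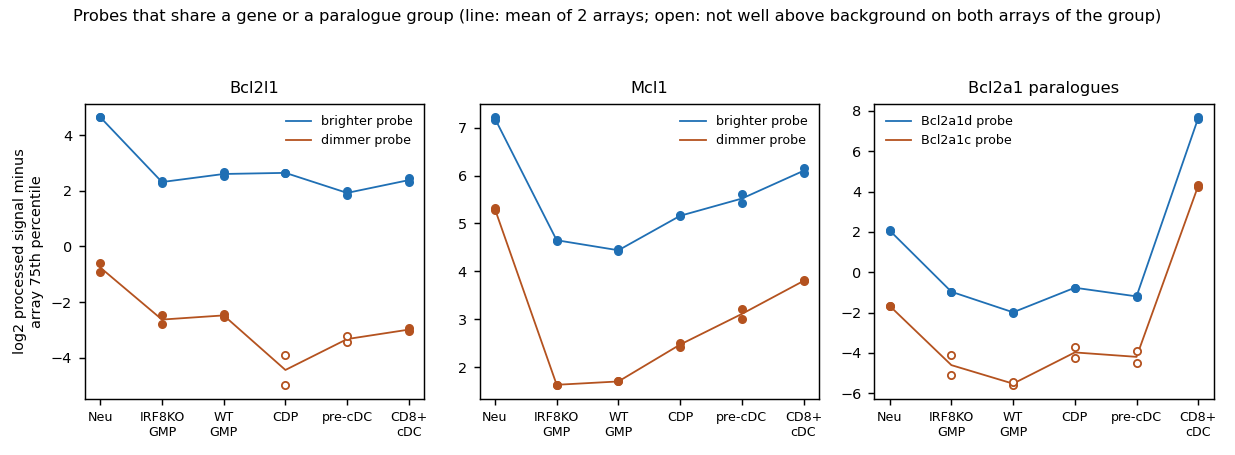
Levels (log2 processed signal minus the array's 75th percentile, vertical axis) by group for the brighter and dimmer probe of Bcl2l1, the same for Mcl1, and the probes of Bcl2a1d and its paralogue Bcl2a1c, with points for single arrays, lines through the group means and open points where a group was not well above background on both arrays. The Mcl1 probes kept 1 pattern (r = 0.996), and the dimmer Bcl2l1 probe was not well above background in CDP or pre-cDC. Both Bcl2a1 probes peaked in CD8+ cDC.

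The effector genes differed from each other in how far they varied. Bax read 2.29 and 2.32 in Neu, 2.78 and 2.90 on the arrays labelled IRF8KO, 3.0 and 3.02 in WT GMP, 4.10 and 4.06 in CDP, 3.67 and 3.56 in pre-cDC and 4.74 and 4.39 in CD8+ cDC. It was highest in CD8+ cDC and lowest in Neu, with no overlap between neighbours. Neu were 1.63-fold lower than WT GMP (-0.70 ± 0.11, limma adjusted p = 3.20e-04) and 4.78-fold lower than CD8+ cDC (-2.26 ± 0.11, limma adjusted p = 2.10e-07), CDP were 2.10-fold higher than WT GMP (1.07 ± 0.11, limma adjusted p = 3.98e-05), and CD8+ cDC were 1.93-fold higher than pre-cDC (0.95 ± 0.11, limma adjusted p = 9.05e-05). Bak1, the gene of the effector BAK, stayed within 4.42 and 4.89 on all 12 arrays, a range of group means of 0.44 or 1.36-fold. It was called higher in Neu than in WT GMP (0.44 ± 0.05) and in pre-cDC than in CDP (0.25 ± 0.05). Under other scalings the first turned to -0.07 to -0.16 and the second to -0.26. The first was called lower with quantile normalization (-0.16, limma adjusted p = 0.0208) and in the authors' table (-0.14, limma adjusted p = 0.0392). The second was called lower on array medians (limma adjusted p = 0.0479). The Bak1 arrays overlapped between IRF8KO and WT GMP, between CDP and IRF8KO GMP, and between CD8+ cDC and pre-cDC.

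Of the BH3-only genes, Pmaip1 had the widest range of group means, 6.79 on the log2 scale. Pmaip1, the gene of NOXA, which binds MCL1 and A1, read 2.97 and 2.98 in Neu, -1.0 and -1.09 on the arrays labelled IRF8KO, -2.35 and -1.99 in WT GMP, 0.96 and 1.17 in CDP, 2.84 and 2.72 in pre-cDC and 4.62 and 4.62 in CD8+ cDC. No groups overlapped, and the level was higher at each step of the dendritic series. The steps were 9.37-fold for CDP over WT GMP (3.23 ± 0.12, limma adjusted p = 1.85e-07), 3.29-fold for pre-cDC over CDP (1.72 ± 0.12, limma adjusted p = 4.08e-06) and 3.58-fold for CD8+ cDC over pre-cDC (1.84 ± 0.12, limma adjusted p = 3.67e-06). Neu were 35.3-fold higher than WT GMP (5.14 ± 0.12, limma adjusted p = 2.51e-09). Pmaip1 kept its direction in all 6 comparisons under every scaling tried.

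Bid, whose protein links death receptors to the mitochondrion once cleaved, varied less. It read 4.03 and 4.07 in Neu, 3.73 and 3.76 on the arrays labelled IRF8KO, 3.66 and 3.68 in WT GMP, 4.56 and 4.57 in CDP, 3.58 and 3.45 in pre-cDC and 3.24 and 3.30 in CD8+ cDC. CDP stood above every other group. CDP were 1.86-fold higher than WT GMP (0.90 ± 0.06, limma adjusted p = 2.39e-06), pre-cDC were 2.07-fold lower than CDP (-1.05 ± 0.06, limma adjusted p = 9.05e-07), and Neu were higher than WT GMP by 0.38 ± 0.06, a value that fell to between -0.09 and -0.14 under 3 other scalings. Bcl2l11, the gene of BIM, was well above background on 7 of the 14 arrays and on neither array of WT GMP or pre-cDC. On the CD8+ cDC arrays it read -1.46 and -1.45, at least 2.68-fold higher than in pre-cDC (limma adjusted p = 1.77e-03). Neu read -2.32 and -3.1 and were called lower than CD8+ cDC by 1.25 ± 0.44 (limma adjusted p = 0.0265), but leaving out Neu array 2 (-0.86), CD8+ cDC array 1 (-1.26) or CD8+ cDC array 2 (-1.25) ended the call, as did normexp (-0.14). In the other 4 comparisons Bcl2l11 was not tested, because neither group had it well above background on both arrays.

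Between the arrays labelled IRF8KO and WT GMP, Bcl2a1d and Pmaip1 were higher and Bcl2 and Bcl2l1 lower. The comparison sets GMP from mice labelled IRF8KO against WT GMP, and the Irf8 probe did not check that label. Of the 8 family genes tested, 2 rose and 2 fell, while 25.7% of all 12156 genes tested were called, 15.2% higher and 10.5% lower. The median difference was 0.0690 over the family genes and 0.0296 over all genes. Bcl2a1d rose 2.02-fold (1.01 ± 0.05, limma adjusted p = 1.22e-05) and Pmaip1 2.18-fold (1.12 ± 0.12, limma adjusted p = 5.00e-04). Bcl2 fell 1.59-fold (-0.67 ± 0.14, limma adjusted p = 0.0104), and Bcl2l1 fell 1.22-fold (-0.29 ± 0.08, limma adjusted p = 0.0327). Mcl1 differed by 0.20 ± 0.07 (limma adjusted p = 0.0744), Bid by 0.08 ± 0.06, Bak1 by 0.06 ± 0.05 and Bax by -0.17 ± 0.11, none of them called.

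The rises of Bcl2a1d and Pmaip1 were also called when these 4 arrays, which shared a slide, were fitted alone (limma adjusted p = 2.69e-03 and 0.0190). There the Bcl2 difference was called too (limma adjusted p = 0.0233), Bcl2l1 was not (limma adjusted p = 0.0690), and Mcl1 was (limma adjusted p = 0.0455), although its second probe gave -0.08 ± 0.07. The Bcl2l1 call was lost in 8 alternatives in all, among them array medians (-0.22), averaged probes (-0.22), no filter on dim genes, the spread over all genes, and leaving out IRF8KO array 1 (-0.34), IRF8KO array 2 (-0.24) or WT GMP array 2 (-0.22), and its second probe gave -0.16 ± 0.31, not called. Without IRF8KO array 1 or without WT GMP array 2 the family count dropped to 2, as Bcl2 (-0.55 and -0.64, limma adjusted p = 0.0759 and 0.0622) and Bcl2l1 lost their calls. Leaving out any 1 of the 4 arrays brought the count over all genes to between 1787 and 1915 of the 3120. Markers of other cells moved in the same comparison. Of the erythroid markers 6 of 7 tested fell, with a summed level, in multiples of the array's 75th percentile, of 6.67 to 6.70 on the arrays labelled IRF8KO and 48.9 to 49.0 on WT GMP arrays. All 6 basophil and mast cell markers fell (26.9 to 27.6 against 81.5 to 84.0), as did all 5 eosinophil markers (22.8 to 24.5 against 80.4 to 80.8), while 6 of 9 neutrophil markers (55.8 to 56.7 against 30.4 to 32.8) and 5 of 5 monocyte markers (116 to 123 against 39.6 to 41.1) rose. The 5 CDP markers, Irf8 among them, also rose, summing to 165 to 167 on the arrays labelled IRF8KO and 84.5 to 85.1 on WT GMP arrays. Csf1r and Cx3cr1 are counted in both the monocyte and the CDP list. The part of these cells in the family's differences was not tested.

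**Figure D3:**
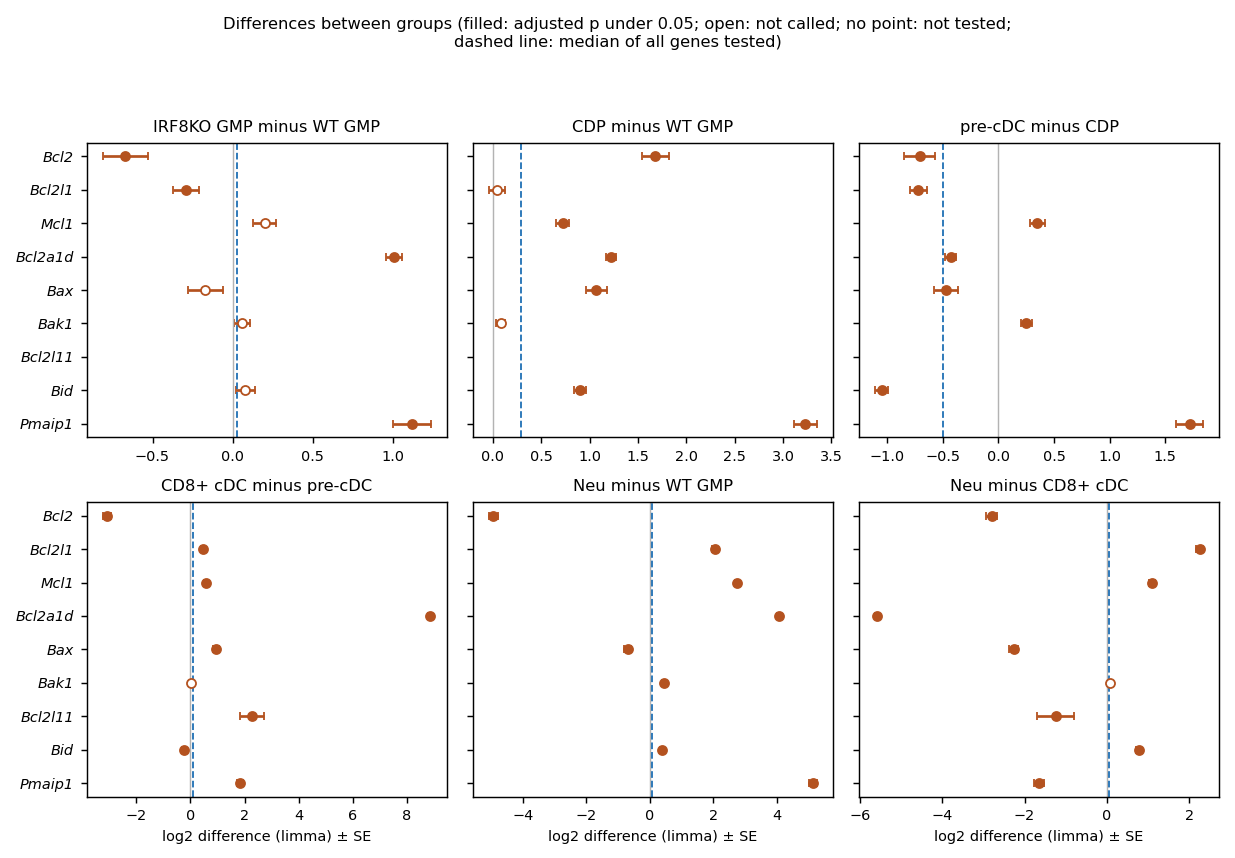
Log2 difference of each BCL2 family gene in 6 comparisons (horizontal axis, limma estimate with SE bars), with filled points called at an adjusted p under 0.05, open points not called, no point where not tested, and a dashed line at the median of all genes tested. Pmaip1 lay right of 0 in every comparison except Neu minus CD8+ cDC (-1.65), and Bcl2 lay at -4.93 for Neu minus WT GMP.

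CDP held more RNA of most family genes than WT GMP, relative to each array's 75th percentile. Of the 8 tested, 6 were higher (Bcl2, Mcl1, Bcl2a1d, Bax, Bid and Pmaip1) and 0 lower, while 78.1% of all 11899 genes tested were called, 51.2% higher and 26.9% lower. The median was 0.984 over the family genes and 0.290 over all genes. The median of all genes moved with the scaling, between -0.21 (percentile over the probes detected on all arrays) and 0.31 (array medians), so the differences are also given relative to it. Relative to the median of all genes, Pmaip1 lay at 2.94, Bcl2 at 1.39, Bcl2a1d at 0.93, Bax at 0.78 and Bid at 0.61, each of 1 sign over all 6 scalings. Mcl1 lay at 0.43 and ranged between -0.04 and 0.43, and Bcl2l1 (-0.25) and Bak1 (-0.21) were below the median in all 6. Unadjusted for that median, Bcl2l1 and Bak1 were called lower in CDP under 4 of these scalings, by -0.29 to -0.46 and by -0.42 to -0.50. Markers of other cells differed too. The basophil and mast cell markers summed to 2.29 to 2.40 in CDP and 81.5 to 84.0 in WT GMP, the eosinophil markers to 2.86 to 3.11 in CDP and 80.4 to 80.8 in WT GMP, and the erythroid markers to 8.34 to 8.38 in CDP and 48.9 to 49.0 in WT GMP. The monocyte markers summed to 574 to 578 in CDP and 39.6 to 41.1 in WT GMP. Of these, Csf1r (level 8.05 in CDP and 4.12 in WT GMP) and Cx3cr1 (5.99 and 1.16) are also on the list of CDP markers. The monocyte sum is therefore not one of other cells alone. Hbb-bt, Klf1, Fcer1a, Ms4a2, Il1rl1 and Il5ra were not well above background in CDP. The part of these cells in the differences was not tested.

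The pre-cDC held more Pmaip1 (1.72), Mcl1 (0.35) and Bak1 (0.25) than CDP, and the falls of greatest size were those of Bid (-1.05), Bcl2l1 (-0.72) and Bcl2 (-0.71). Array medians turned Mcl1 to -0.16 and Bak1 to -0.26, the latter called lower (limma adjusted p = 0.0479). Of the 8 family genes tested, 3 were higher and 5 lower (Bcl2, Bcl2l1, Bcl2a1d, Bax and Bid), while 84.0% of all 11481 genes tested were called, 25.3% higher and 58.8% lower. The medians were -0.451 and -0.495, so the falls of Bcl2a1d (-0.43 ± 0.05) and Bax (-0.47 ± 0.11) were of the size of the median gene's. Relative to the median of all genes, Pmaip1 lay at 2.21, Mcl1 at 0.84, Bak1 at 0.74 and Bid at -0.56, each of 1 sign over all 6 scalings, and Bcl2l1 lay at -0.23, also of 1 sign. Bcl2 lay at -0.22 but ranged up to 0.05, and its call was lost with quantile normalization (-0.19), the detected probes (-0.18) and the authors' table (-0.16) while Bcl2a1d lay between -0.40 and 0.07. With the percentile taken over the probes detected on all arrays, 4 of the 8 were called, and there Bcl2a1d turned to 0.10 and Bax to 0.06. The median of all genes lay between -1.01 and 0.03 over the scalings. Markers of stress and of other cells differed as well. Stress and dissociation genes summed to 123 to 124 in pre-cDC and 13.9 to 14.9 in CDP, where Fosb, Egr1 and Atf3 were not well above background. Plasmacytoid markers summed to 545 to 569 in pre-cDC and 275 to 280 in CDP, where Ccr9 and Klk1 were not well above background. Neutrophil markers summed to 88.3 to 91.0 in pre-cDC and 17.0 to 17.6 in CDP, with 7 of the 10 that had a probe well above background on both arrays in pre-cDC and 3 in CDP. Their part in these differences was not tested.

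In CD8+ cDC against pre-cDC the family changed most in Bcl2a1d, which rose, and in Bcl2, which fell. Of the 9 tested, 6 rose (Bcl2l1, Mcl1, Bcl2a1d, Bax, Bcl2l11 and Pmaip1) and 2 fell (Bcl2 and Bid), while 74.9% of all 12597 genes tested were called, 40.2% higher and 34.7% lower. The median was 0.581 over the family genes and 0.0783 over all genes. Bcl2l1 rose by 0.46 ± 0.08 (limma adjusted p = 1.05e-03), a call lost when its probes were averaged (limma adjusted p = 0.0534). Bid fell by 0.24 ± 0.06 (limma adjusted p = 4.62e-03), a call lost on array medians (-0.01), after normexp (-0.07) and in the fit of the 4 arrays alone. Bak1 differed by 0.03 ± 0.05, and normexp made that 0.18 and called. The groups came from spleen and bone marrow, and the 8 erythroid markers summed to 324 to 339 in CD8+ cDC and 15.8 to 16.5 in pre-cDC. Klf1 was not well above background in either group. Stress and dissociation genes, all 10 well above background in both, summed to 94.5 to 102 in CD8+ cDC and 123 to 124 in pre-cDC, against 5.48 to 5.50 in WT GMP. The part of either in these differences was not tested.

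Among the survival genes, neutrophils held less Bcl2 and more Mcl1, Bcl2l1 and Bcl2a1d than WT GMP, and among the death genes more Pmaip1 and less Bax. Of the 8 family genes tested, 6 were higher (Bcl2l1, Mcl1, Bcl2a1d, Bak1, Bid and Pmaip1) and 2 lower (Bcl2 and Bax), while 92.2% of all 12520 genes tested were called, 47.1% higher and 45.1% lower. The median was 1.24 over the family genes and 0.0734 over all genes. Of these, Bcl2l1, Mcl1, Bcl2a1d, Pmaip1, Bcl2 and Bax kept 1 sign relative to the median of all genes over the 6 scalings, and Bak1 (-0.10 to 0.37) and Bid (-0.05 to 0.31) did not. Against CD8+ cDC on the same slide, 3 of 9 tested were higher in Neu (Bcl2l1, Mcl1 and Bid) and 5 lower (Bcl2, Bcl2a1d, Bax, Bcl2l11 and Pmaip1), while 86.2% of all 12817 genes tested were called, 43.4% higher and 42.8% lower. The medians were -1.25 over the family genes and 0.0557 over all genes. Fitted on those 4 arrays alone, the same counts held. Bak1 differed by 0.08 ± 0.05 and turned to between -0.07 and -0.43 under other scalings. It was called lower in Neu with quantile normalization (-0.43, limma adjusted p = 1.06e-04) and in the authors' table (-0.43, limma adjusted p = 1.03e-04). The percentile over detected probes also called it lower (-0.22, limma adjusted p = 5.10e-03). By the labels Neu were sorted by flow cytometry alone, while the other groups in these comparisons were first enriched with magnetic beads. Markers of other cells differed too. Basophil and mast cell markers summed to 2.78 to 2.91 in Neu and 81.5 to 84.0 in WT GMP. Erythroid markers summed to 14.3 to 14.5 in Neu, 48.9 to 49.0 in WT GMP and 324 to 339 in CD8+ cDC. Of 6 T and NK cell markers, 5 were well above background on both arrays in Neu and in CD8+ cDC, and 3 in WT GMP. Their part in these differences was not tested.

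CD4+ cDC were hybridised to a second array design with fewer probes and entered no test, so their levels are set beside those of CD8+ cDC on the scale of the 75th percentile over the probes that both designs hold. Bcl2a1d was high in both, at 6.44 and 6.37 in CD4+ cDC and 6.61 and 6.66 in CD8+ cDC, and Bcl2 was low in both, at -0.93 and -0.43 in CD4+ cDC and -0.50 and -0.70 in CD8+ cDC. The arrays of the 2 groups overlapped for Bcl2 and Bcl2l1 and for no other family gene. Pmaip1 was 1.35 higher in CD4+ cDC on the log2 scale (4.88 and 5.03, against 3.62 and 3.60), and the death-side genes Bak1 (-1.41), Bcl2l11 (-1.41), Bid (-1.27) and Bax (-0.92) were lower in CD4+ cDC. Mcl1 differed by 0.21. Bcl2a1d differed by -0.23 here and by 0.53 in the authors' table, so its direction between the subsets was not settled. The middle 50% of 17765 probes lay between -0.758 and 0.638 with a median of -0.0288, and 36.7% differed at least 2-fold. Both groups held globin RNA, with erythroid sums of 408 to 546 in CD4+ cDC and 324 to 339 in CD8+ cDC. Those sums are in multiples of each array's own 75th percentile, over the probes of its own design, so they are not compared. The labels give magnetic beads as the only purification of CD4+ cDC. Design, slide and subset cannot be told apart.

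**Figure D4:**
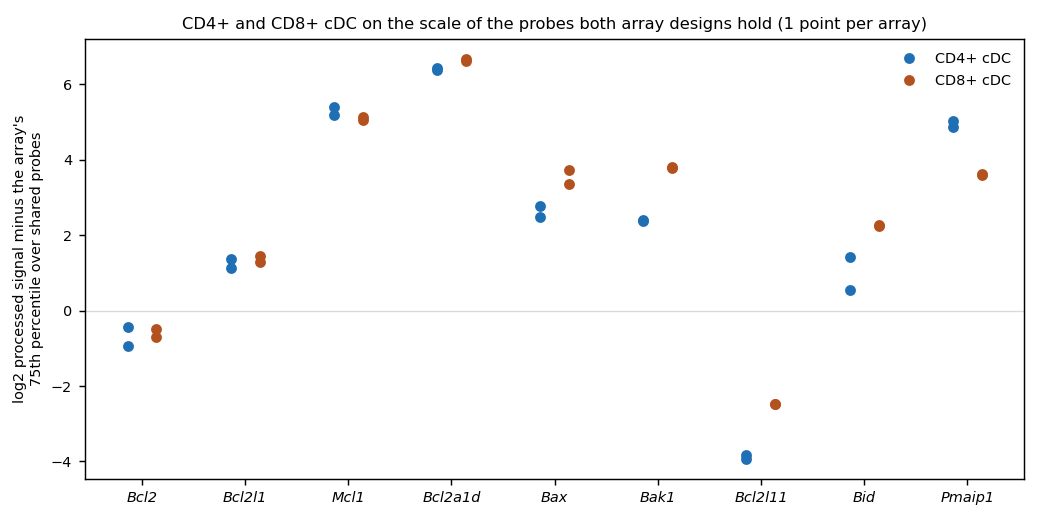
Levels of the 9 BCL2 family genes in CD4+ and CD8+ cDC (1 point per array), as log2 processed signal minus the array's 75th percentile over the probes both array designs hold. Pmaip1 was higher in CD4+ cDC by 1.35, Bak1 and Bcl2l11 lower by 1.41, and the points of the groups overlapped for Bcl2 and Bcl2l1.

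Other BCL2 relatives were read from a list of 18 genes, of which 17 had a probe. On the arrays labelled IRF8KO, 4 of 13 tested were higher than in WT GMP and 1 lower (median 0.154). Bmf, a BH3-only gene, rose by 1.78 ± 0.21 and Bnip3l, a mitophagy receptor gene, by 0.33 ± 0.07, while Bcl2l14 fell by 1.41 ± 0.08. The Bnip3l call was lost on array medians and without any of 3 of the 4 arrays (IRF8KO array 1 or 2, WT GMP array 2), and the list count, 5 here, was 2 on array medians. In CDP against WT GMP, 10 of 13 were higher and 1 lower (median 0.822), led by Bcl2l14 (2.88 ± 0.08) and the BH3-only gene Bad (1.50 ± 0.07), with the autophagy gene Becn1 lower (-0.48 ± 0.08). In pre-cDC against CDP, 1 of 13 was higher, Bmf (1.52 ± 0.21), and 11 lower (median -1.17), with Bcl2l14 at -2.71 ± 0.08 and Bok, a gene related to Bax and Bak1, at least 1.38-fold lower.

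In CD8+ cDC against pre-cDC, 7 of 14 relatives were higher and 4 lower (median 0.326), with Bcl2l14 rising by 5.63 ± 0.08 beside Bcl2a1c and Bcl2l12 falling by 0.94 ± 0.06 and Bad by 0.33 ± 0.07. In the authors' table Bcl2l12 was not called (-0.96), and Bad lost its call with normexp and on array medians. In Neu against WT GMP, 8 of 14 were higher and 5 lower (median 0.538). Bmf rose by 4.86 ± 0.21, Bok was at least 2.19-fold lower, and Bcl2l12 fell by 3.52 ± 0.07, with a spot marked as an outlier left out on Neu array 1. In the authors' table this Bcl2l12 difference was -1.58 and not called (limma adjusted p = 0.149). In Neu against CD8+ cDC, 7 of 14 were higher and 6 lower (median 0.237), with Bnip3l (2.62 ± 0.07) and Bnip3 (2.12 ± 0.06), both mitophagy receptor genes, higher and Bcl2l14 at least 150-fold lower, beside Bcl2a1c. For these lists and those that follow, the shares of all genes tested that were called stand for comparison. They were 25.7% for IRF8KO against WT GMP (15.2% higher, 10.5% lower), 78.1% for CDP against WT GMP (51.2% higher, 26.9% lower) and 84.0% for pre-cDC against CDP (25.3% higher, 58.8% lower). They were 74.9% for CD8+ cDC against pre-cDC (40.2% higher, 34.7% lower), 92.2% for Neu against WT GMP (47.1% higher, 45.1% lower) and 86.2% for Neu against CD8+ cDC (43.4% higher, 42.8% lower).

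Downstream of the mitochondrion, all 13 genes of the apoptosome and caspase list were tested. In Neu 3 rose and 10 fell against WT GMP (median -1.13, all genes 0.0734, with 45.1% of all genes lower), and 3 rose and 10 fell against CD8+ cDC (median -0.964, all genes 0.0557, with 42.8% lower). Casp9, the initiator caspase of the apoptosome, rose by 2.16 ± 0.08 against WT GMP. Endog, a mitochondrial nuclease gene, was at least 25.3-fold lower in Neu than in WT GMP, Aifm1, the gene of apoptosis-inducing factor, fell by 2.12 ± 0.05 there, and the executioner Casp6 fell by 4.57 ± 0.08 against CD8+ cDC. On the arrays labelled IRF8KO, 0 rose and 4 fell (median 0.0574), Diablo, which encodes an antagonist of inhibitor of apoptosis proteins, by 1.63 ± 0.07. In CDP against WT GMP, 7 rose and 3 fell (median 0.281), with Casp6 at 2.09 ± 0.08 and the nuclease gene Dffb at -1.47 ± 0.15. In pre-cDC against CDP, 1 rose, Dffb (0.51 ± 0.15), and 10 fell (median -0.818), Endog by 2.11 ± 0.07. The Dffb call was lost with normexp, quantile normalization, the 4 arrays alone, and without pre-cDC array 1 (0.29) or CDP array 1 (0.45), and array medians gave -0.01. Between CD8+ cDC and pre-cDC, 9 rose and 2 fell (median 0.452), with Casp6 at 1.34 ± 0.08 and Dffa at -0.66 ± 0.11.

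Of the 7 genes of inhibitor of apoptosis proteins, all tested, Birc5 acts mainly in cell division and Naip2 and Naip5 in sensing bacterial proteins. In Neu against WT GMP, 5 rose and 2 fell (median 1.54), with Naip2 at 2.57 ± 0.09 and Birc5 at -2.73 ± 0.05. In Neu against CD8+ cDC, 3 rose and 2 fell (median 0.100), again with Naip2 (2.98 ± 0.09) and Birc5 (-2.38 ± 0.05) at the ends. On the arrays labelled IRF8KO, 2 rose and 2 fell (median -0.0504), with Birc3 at 0.40 ± 0.08 and Naip2 at -0.90 ± 0.09, and Birc3 lost its call on array medians and without IRF8KO array 2 (0.34). In CDP against WT GMP, 2 rose and 3 fell (median -0.0825), with Birc5 at 2.13 ± 0.05 and Naip2 at -0.76 ± 0.09. In pre-cDC against CDP, 3 rose and 3 fell (median -0.0931), with Birc3 at 1.01 ± 0.08 and Xiap, a direct caspase inhibitor gene, at -1.21 ± 0.06. Between CD8+ cDC and pre-cDC, 4 rose and 2 fell (median 0.398), with Birc3 at 1.86 ± 0.08 and Birc5 at -1.71 ± 0.05.

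In the death receptor list of 12 genes, Fas, a receptor that starts the extrinsic pathway, rose in 4 of the 6 comparisons. In Neu against WT GMP, 5 of 11 tested rose and 5 fell (median 0.167), Fas by 7.63 ± 0.08, while the ligand gene Tnfsf10 was at least 7.50-fold lower and Ripk3, a kinase gene of necroptosis, fell by 3.95 ± 0.06. In Neu against CD8+ cDC, 6 of 10 rose and 3 fell (median 0.364), Fas by 3.60 ± 0.08, with Ripk3 at -3.03 ± 0.06. On the arrays labelled IRF8KO, 3 of 11 rose and 1 fell (median 0.0630), with Fas at 1.01 ± 0.08 and Casp8, the initiator caspase of the pathway, at -0.26 ± 0.07. The Casp8 call was lost without any 1 of the 4 arrays (-0.24 to -0.29) and under 4 other settings. In CDP against WT GMP, 6 of 11 rose and 4 were called lower (median 0.406), with the adaptor gene Tradd at 1.22 ± 0.04. Fas, counted among the 4, was not well above background in CDP. No fold is given for Fas, whose difference was positive and called after normexp (0.79, limma adjusted p = 1.66e-06). Tnfsf10, well above background in both groups, fell by 1.73 ± 0.21. In pre-cDC against CDP, 0 of 10 rose and 8 fell (median -0.762, while 58.8% of all genes were lower), Tnfsf10 at least 2.09-fold and Mlkl, the effector gene of necroptosis, by 2.53 ± 0.14. In CD8+ cDC against pre-cDC, 4 of 10 rose and 2 fell (median 0.191), Fas at least 12.9-fold and Tnfrsf10b, a receptor gene for the Tnfsf10 ligand, by 1.69 ± 0.13, and Mlkl fell by 2.01 ± 0.14.

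Regulators of p53 and of BH3-only genes formed a list of 11. In Neu against WT GMP, 6 of 11 rose and 5 fell (median 0.305), Trp53inp1 by 5.41 ± 0.13, while Cdkn1a, a cell cycle inhibitor gene, was at least 6.80-fold lower and Trp53 itself fell by 4.42 ± 0.10, well above background on 1 of the 2 Neu arrays. In Neu against CD8+ cDC, 6 of 11 rose and 5 fell (median 0.204), Trp53inp1 by 3.65 ± 0.13, with Cdkn1a at least 11.8-fold lower and Foxo1, a transcription factor gene, at -5.17 ± 0.08. On the arrays labelled IRF8KO, 4 of 10 rose and 1 fell (median 0.160), with Cdkn1a at 1.47 ± 0.09 and Zmat3 at -0.81 ± 0.14. The Cdkn1a rise was 0.60 and not called when the probes of a gene were averaged. In CDP against WT GMP, 6 of 10 rose and 2 fell (median 0.741), with Cdkn1a at 1.99 ± 0.09 and Zmat3 at -0.93 ± 0.14. Normexp turned Zmat3 to 0.21, called higher (limma adjusted p = 0.0253). In pre-cDC against CDP, 2 of 10 rose and 6 fell (median -0.403), with Foxo1 at 1.16 ± 0.08 and Cdkn1a at -1.11 ± 0.09 (-0.29 and not called with its probes averaged). In CD8+ cDC against pre-cDC, 4 of 11 rose and 2 fell (median 0.259), with Trp53inp1 at 1.91 ± 0.13 and Trp53 at -1.19 ± 0.10.

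Genes for the turnover of MCL1 protein, a list of 7 ubiquitin ligases, deubiquitinases and a kinase, were measured at the RNA level alone. In Neu against WT GMP, 3 of 6 tested rose and 3 fell (median 0.430), with the ligase gene Trim17 at least 4.83-fold higher, the kinase gene Gsk3b at 2.48 ± 0.10 and the ligase gene Huwe1 at -2.51 ± 0.08. In Neu against CD8+ cDC, 4 of 6 rose and 1 fell (median 0.838), with Gsk3b at 1.92 ± 0.10 and Huwe1 at -1.87 ± 0.08. On the arrays labelled IRF8KO, 0 of 5 were called by limma (median -0.0260) and 0 had an unadjusted p under 0.05, while 1 was called after normexp and 1 with averaged probes. In CDP against WT GMP, 2 of 5 rose and 3 fell (median -0.416), with Gsk3b at 1.38 ± 0.10 and the deubiquitinase gene Usp9x at -0.86 ± 0.11. In pre-cDC against CDP, 2 of 6 rose and 2 fell (median -0.170), with Trim17 at least 2.34-fold higher (0.02 and not called after normexp), the ligase gene Fbxw7 at 1.08 ± 0.08 and Gsk3b at -0.98 ± 0.10. In CD8+ cDC against pre-cDC, 0 of 6 rose and 2 fell (median -0.0479), the ligase gene Btrc by 1.31 ± 0.27 (-0.28 and not called with its probes averaged).

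For the family genes whose group means ranged over at least 2 on the log2 scale, the genes with the most similar pattern over the 6 group means were sought among 8842 or 8843 candidates, as a description. Bcl2 was most like Ccna2, the gene of cyclin A2 (r = 0.998), and Tedc1 (r = 0.998). Mcl1 was most like Kirrel3 (r = 0.998) and Cpeb2 (r = 0.998), Bcl2l1 like Prkaa1, a catalytic subunit gene of AMP-activated kinase (r = 0.998), and Rap1b (r = 0.994), and Bcl2a1d like Fuca1 (r = 0.993) and Ltbp2 (r = 0.993). Bax was most like Lrrk1 (r = 0.997) and Vwa5a (r = 0.991), Bcl2l11 like Vrk2 (r = 0.982) and Atox1 (r = 0.974), and Pmaip1 like Tapbp, which loads peptides on class I molecules (r = 0.996), and Fmnl2 (r = 0.994). With 6 points that share arrays and scaling, and this many candidates, such values say nothing of shared control.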

How the data were processed

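Spot intensities were made by Agilent Feature Extraction 10.7.3.1, per the file headers, which record background subtraction and detrending inside each array and no step between arrays. The authors also deposited a table of intensities for 39429 probes, whose 14 columns hold identical sorted values, as after quantile normalization. The steps behind it are not stated in the labels or headers. Control spots and spots marked as outliers were left out, log2 signals were averaged over a probe's spots, and the log2 of the 75th percentile of that array was then taken off. The scanner's mark for well above background had to hold for a share of 0.5 or more of a probe's spots. Probes were named through accessions in the RefSeq table of GRCm38.p6, used for names alone (26762 of 55681 probes had 1 symbol), and a gene took its brightest probe. No spot was saturated, and precision is limited by 2 arrays a group.

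Differences came from limma 3.58.1 in R 4.3.3 (lmFit, contrasts, eBayes, with the spread estimated over 13574 measured genes, 7.53 degrees of freedom), adjusted by Benjamini-Hochberg over genes that 1 or both groups had well above background on each of their arrays. On simulated data for the IRF8KO comparison (13552 genes), 45 of 50 genes changed by 1 and 23 of 50 changed by 0.5 on the log2 scale were called, with 4 false calls. Noise was drawn independently for each array from each gene's spread between replicates, with no slide, animal or cell mix effect. The false calls are therefore no error rate for the measured arrays. The files held no mean spot signal, so normexp (offset 50) used the median signal and background, another column than planned. Other alternatives were quantile normalization, array medians, the percentile over detected probes, the authors' table, no filter, averaged probes, 4-array fits, a replicate block and leaving out arrays. Estimating the spread over all genes was added after seeing the data. The rule named up to 2 called rises and 2 called falls per list and comparison; the text gives the largest by fitted difference, with the second too for BCL2 relatives and where the first is only a bound, except for results withheld, which are not reported here. Members and lists were chosen with earlier results of these data known. Figures used matplotlib 3.10.9 with Python 3.11.15, and promoter windows were aligned with Biopython 1.88.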

Additional observations from a re-analysis of the deposited data

How the results depend on the processing

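Of 700 alternative values of the BCL2 family genes, 639 kept direction and side of the threshold. With the direction kept, 28 lost and 2 gained a call. A further 31 changed sign, in comparisons with and without the dim CDP arrays, and some of these were called in the new direction. For CDP minus WT GMP, Bcl2l1 (0.04) became -0.29 with normexp, -0.32 with quantile normalization, -0.46 with the percentile over detected probes, -0.31 in the authors' table, -0.96 with averaged probes and between -0.03 and 0.11 without 1 array, and Bak1 (0.08) became -0.44, -0.50, -0.42 and -0.49 in the first 4. For pre-cDC minus CDP, Bax became 0.06 (quantile normalization), 0.06 (detected probes) and 0.08 (authors' table), Bcl2a1d 0.10 (detected probes), Mcl1 -0.16 and Bak1 -0.26 (array medians), and Bcl2l1 0.20 (averaged probes). For CD8+ cDC minus pre-cDC, Bak1 became -0.02, -0.04 and -0.03 (quantile normalization, detected probes, authors' table). For Neu minus WT GMP, Bak1 became -0.16, -0.07 and -0.14 and Bid -0.12, -0.14 and -0.09 (quantile normalization, array medians, authors' table). For Neu minus CD8+ cDC, Bak1 became -0.07, -0.43, -0.16, -0.22 and -0.43 (normexp, quantile normalization, array medians, detected probes, authors' table). Called in the new direction were Bcl2l1 and Bak1 for CDP minus WT GMP in the settings named, except Bcl2l1 without 1 array. So was Bak1 for pre-cDC minus CDP on array medians, and for Neu minus WT GMP with quantile normalization and the authors' table. For Neu minus CD8+ cDC, Bak1 was called lower with quantile normalization, detected probes and the authors' table. The causes were not tested.

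Genes called between the arrays labelled IRF8KO and WT GMP numbered 3120, 1535 on array medians and 1787 to 1915 without 1 array, and family genes called 4, with 2 to 4 without 1 array. In the other 5 comparisons, leaving out 1 array gave family counts of 6 to 9. For pre-cDC against CDP the percentile over detected probes gave 4 called in place of 8. Among 1189 values of named list genes, 27 lost the call and 3 changed sign: Fas (0.79) and Zmat3 (0.21) for CDP minus WT GMP with normexp, and Dffb (-0.01) for pre-cDC minus CDP on array medians. Fas and Zmat3 were called higher with normexp. Deviations of same-numbered arrays correlated between -0.136 and 0.0480 over 8716 genes, so no pairing by these numbers was seen. Whether the numbers mark shared batches is not stated. With the replicate number as a block, 2764 genes and 4 family genes were called for IRF8KO against WT GMP, and no family call changed in any comparison.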
